A study of Mus musculus with 20 samples.

Results

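Interstitial collagens and the proteins that assemble with them form the fibrous matrix of connective tissue. The group described here is a named list of 37 genes: 17 collagen genes, 3 small leucine-rich proteoglycans, 6 elastic fibre genes, 3 lysyl oxidases and 8 matricellular or other matrix genes. The rule names the genes and uses no measured value, although the list was drawn up with earlier results of these data known, and all 37 were found by their Ensembl gene ids among the 55573 genes of the count table. The counts came from mouse induced pluripotent stem cells (iPSCs), made from fibroblasts with retroviruses carrying Oct4, Sox2, Klf4 and c-Myc, and from the embryoid bodies (EB) grown from them. There were 20 libraries: 2 wild type lines (WT#1-4 and WT#20D-17) and 2 lines without the NADPH oxidase Nox4 (Nox4-/-#5-8 and Nox4-/-#5-23), each sampled once on days 0, 3, 5, 7 and 14 of differentiation.

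Each line is 1 clone picked from a colony, so each genotype has 2 replicates, and the 5 days of a line are repeated samples of that clone. All 4 lines carried the reprogramming viruses, were kept with LIF on a feeder layer of embryonic fibroblasts treated with mitomycin C, were aggregated in hanging drops without LIF for 3 days and were then plated on gelatin. The sample labels name day 14 as the last day where the protocol names day 10, and whether days were counted from LIF removal or from plating was not given in the sources used here, so day 0 is called by its label. Feeder cells are themselves fibroblasts, and their share of the day 0 RNA was not tested. In whole cultures such as these, fewer cells of a type and less RNA per cell cannot be told apart.

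Fibrillar collagens are made as procollagen chains, hydroxylated and folded in the endoplasmic reticulum, trimmed outside the cell and crosslinked by lysyl oxidases. Types I, III and V form mixed fibrils, whose spacing and width are set by small leucine-rich proteoglycans and by collagens that bind the fibril surface. Matricellular proteins such as periostin, tenascin C and the thrombospondins sit in the same matrix and pass signals to cells, and fibroblasts are the best known source of most of these products.

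The libraries held between 20294968 and 27708023 estimated counts. Values are given below as TMM CPM, that is, counts scaled to library totals with the trimmed-mean factors of edgeR, and the limit that a count of 0 allows (3 counts) was between 0.109 and 0.157 CPM. Nox4 was at 0 counts in all 5 libraries of Nox4-/-#5-23, at 0 to 2 counts in Nox4-/-#5-8, at 3 to 22 in WT#1-4 and at 56 to 203 in WT#20D-17. WT#20D-17 stood apart from the other lines in other markers. Its Nanog, a pluripotency factor, went from 383 CPM at day 0 to 8.4 at day 14, whereas Nanog was between 0.038 and 1.03 CPM in the 15 libraries of the other lines, day 0 included. Zfp42, a marker of naive pluripotency, was at 41.6 CPM at day 0 in WT#20D-17 and at 0 in those 15 libraries. Other genes of the 16-gene pluripotency list were lower in WT#20D-17 at day 0: Pou5f1 (Oct4) was at 1136 CPM there and at 3081 to 5760 in the other lines, Klf4 at 26.4 against 648 to 828, and Fgf4 at 93.4 against 135 to 174. Viral and endogenous copies of Oct4 and Klf4 cannot be told apart in gene counts. Most of the rest of the list followed Nanog at day 0: Esrrb, Tfcp2l1, Tbx3, Dppa2, Dppa3, Dppa4, Dppa5a, Tdgf1, Utf1 and Lin28a were higher in WT#20D-17 than in the other lines. Lin28a was at 468 CPM there and at 0 in the others, and Dppa5a at 900.1 against at most 0.418. Sox2 was at 195 CPM in WT#20D-17 and 33.6 to 202 in the others. All of these genes were named after their values were seen. By day 14 Pou5f1 was at 21.3 CPM in WT#20D-17 and at 1278, 1873 and 3677 in WT#1-4, Nox4-/-#5-8 and Nox4-/-#5-23. From day 0 to day 14, 13 of the 16 genes were at least halved in CPM + 1 in WT#20D-17, against 4, 1 and 0 in those lines. In them 3, 4 and 7 of the 16 had 3 counts or fewer on every day, where no fall can be seen. In WT#20D-17, 12 parietal endoderm genes summed to 1711 CPM at day 0 and 74815 at day 14, against 466 to 1485 in the other lines.

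The promoters of 4 of the genes are printed here because these genes carry the main patterns: Col1a2, Col3a1 and Postn, which were at least doubled by day 14 in WT#20D-17 and in no other line, and Cyr61, which was at least doubled in all 4. They are RefSeq windows on GRCm38.p6 that run from 250 bases before to 50 bases after an annotated start, at chr6:4505368-4505667 (plus strand), chr1:45311288-45311587 (plus), chr3:54360857-54361156 (plus) and chr3:145649936-145650235 (minus). Capitals mark the matches, on either strand, to CCAAT (the core bound by NF-Y), TATAAA (bound by the TATA-binding protein), CATTCC (bound by TEAD factors), CAGAC (bound by SMADs) and GGGCGG (bound by SP factors).
Col1a2: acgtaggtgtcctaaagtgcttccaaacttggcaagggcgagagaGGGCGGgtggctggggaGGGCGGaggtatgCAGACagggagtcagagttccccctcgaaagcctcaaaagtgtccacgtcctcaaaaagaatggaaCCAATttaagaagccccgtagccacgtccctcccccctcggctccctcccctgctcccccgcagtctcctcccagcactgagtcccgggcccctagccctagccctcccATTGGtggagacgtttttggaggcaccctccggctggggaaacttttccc
Col3a1: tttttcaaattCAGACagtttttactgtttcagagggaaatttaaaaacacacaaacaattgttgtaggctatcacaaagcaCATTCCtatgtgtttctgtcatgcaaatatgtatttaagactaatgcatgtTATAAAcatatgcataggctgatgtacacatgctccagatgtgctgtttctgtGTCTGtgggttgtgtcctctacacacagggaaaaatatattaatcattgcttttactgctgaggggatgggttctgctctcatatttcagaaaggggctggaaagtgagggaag
Postn: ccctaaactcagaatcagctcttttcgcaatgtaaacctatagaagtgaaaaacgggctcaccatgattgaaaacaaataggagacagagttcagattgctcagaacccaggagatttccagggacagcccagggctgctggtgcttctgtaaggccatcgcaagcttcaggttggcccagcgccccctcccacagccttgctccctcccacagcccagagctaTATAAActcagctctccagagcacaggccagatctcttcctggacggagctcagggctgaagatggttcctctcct
Cyr61: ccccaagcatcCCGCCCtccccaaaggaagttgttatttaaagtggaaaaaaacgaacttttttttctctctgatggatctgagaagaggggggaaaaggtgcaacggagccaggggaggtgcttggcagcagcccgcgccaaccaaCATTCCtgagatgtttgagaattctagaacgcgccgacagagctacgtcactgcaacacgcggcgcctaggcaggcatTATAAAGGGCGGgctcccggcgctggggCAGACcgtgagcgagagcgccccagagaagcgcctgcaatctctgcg

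The Col1a2 window held CCAAT at positions -109 and 0 relative to the start and GGGCGG at -205 and -188, with CAGAC at -175. The Postn window held only TATAAA, at -26, and the Cyr61 window held TATAAA at -25, directly followed by GGGCGG at -19, with CATTCC at -103. In the Col3a1 window TATAAA lay at -117 and CATTCC at -168. RefSeq held 27 windows for 21 of the 37 genes, a second one for Postn among them. Of the 27 windows, 8 held CCAAT, as did 37.4% of the 32851 RefSeq promoter windows, and 6 held TATAAA (13.6% of all windows). There were 4 with CATTCC (14.7%), 18 with CAGAC (49.6%) and 17 with GGGCGG (35.7%), with a window counted under each motif it holds. The matches are a description of the letters only.

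The first question was how much of each gene was present at day 0 and how much was gained after it. The 37 genes summed to 1314 CPM in WT#1-4 at day 0, 722 in WT#20D-17, 172 in Nox4-/-#5-8 and 169 in Nox4-/-#5-23. At day 14 the same sums were 2619.7, 8693, 539 and 1163 CPM. A few genes made up most of the day 0 sums of the wild type lines: Col15a1 at 541 CPM and Fbn1 at 326 in WT#1-4, and Col18a1 at 461 in WT#20D-17. At day 0, 25 of the 37 genes were highest in WT#1-4 and 11 in WT#20D-17. At day 14, 27 were highest in WT#20D-17 and 9 in WT#1-4. The same counts were not made over all genes, so they do not set these genes apart from others.

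**Figure D1:**
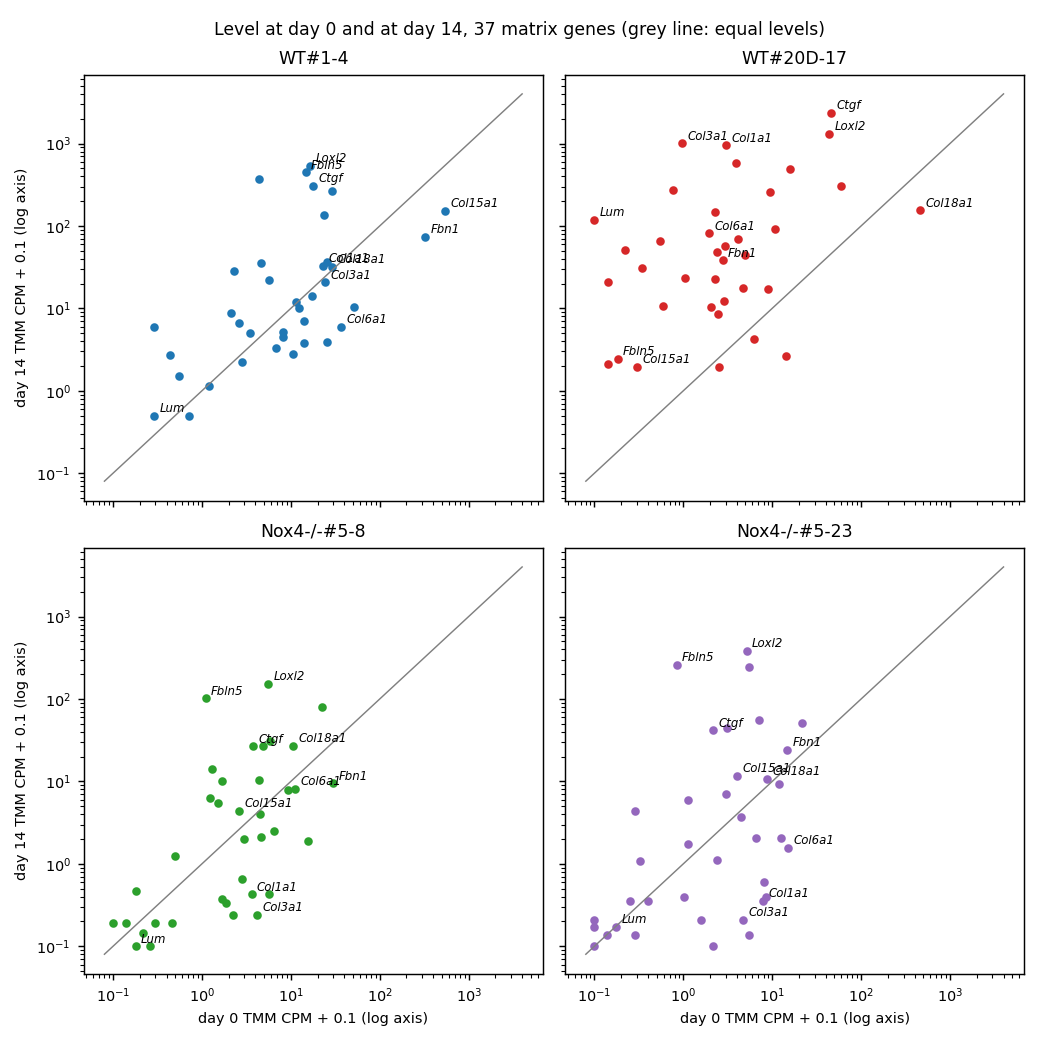
Day 0 level (x) against day 14 level (y) of the 37 genes in each line, both as TMM CPM + 0.1 on log axes, with 1 point a gene and a grey line where both are equal. In WT#20D-17 most genes lie above the line, with Col3a1 going from 0.861 to 1002 CPM, whereas in the other 3 lines the points lie on both sides.

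Changes within a line were compared on log2(CPM + 1), with a gain or loss counted from 1, a doubling or halving. There was 1 library for each line and day, so these counts have no replicate check. In WT#20D-17, 32 of the 37 genes were at least doubled from day 0 to day 14 and 2 were at least halved, where 16.7% and 15.3% of the 19240 genes passing the expression filter did so. WT#1-4 had 13 genes higher (14.9% of all genes) and 7 lower (14.6%). Nox4-/-#5-8 had 12 higher (13.5% of all genes) and 10 lower (10.2%), and Nox4-/-#5-23 had 10 higher (12.9%) and 10 lower (9.83%). The median change of the 37 genes was 3.64 in WT#20D-17, 0.14 in WT#1-4, -0.11 in Nox4-/-#5-8 and 0.00 in Nox4-/-#5-23, against a median of 0.00 over all genes in each line.

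Of the 37 genes, 18 were at least doubled in WT#20D-17 and in no other line, against 8.93% of all genes. These were Col1a1, Col1a2, Col3a1, Col5a1, Col5a2, the 3 type VI chains Col6a1, Col6a2 and Col6a3, Col14a1, Postn, Lum, Bgn, Fbn1, Fbn2, Fbln1, Mgp, Tnc and Thbs2. The added 1 CPM matters at low levels. In plain CPM Fbn2 also more than doubled in WT#1-4, from 0.456 to 1.39 (ratio 3.05, 1.5 to 6.58). So did Thbs2 in Nox4-/-#5-23, from 2.94 to 6.85, and Lum in WT#1-4, on 5 and 8 counts. Another 6, Fbln2, Fbln5, Loxl2, Thbs1, Ctgf and Cyr61, were at least doubled in all 4 lines, against 2.72% of all genes. None was halved in all 4.

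**Figure D2:**
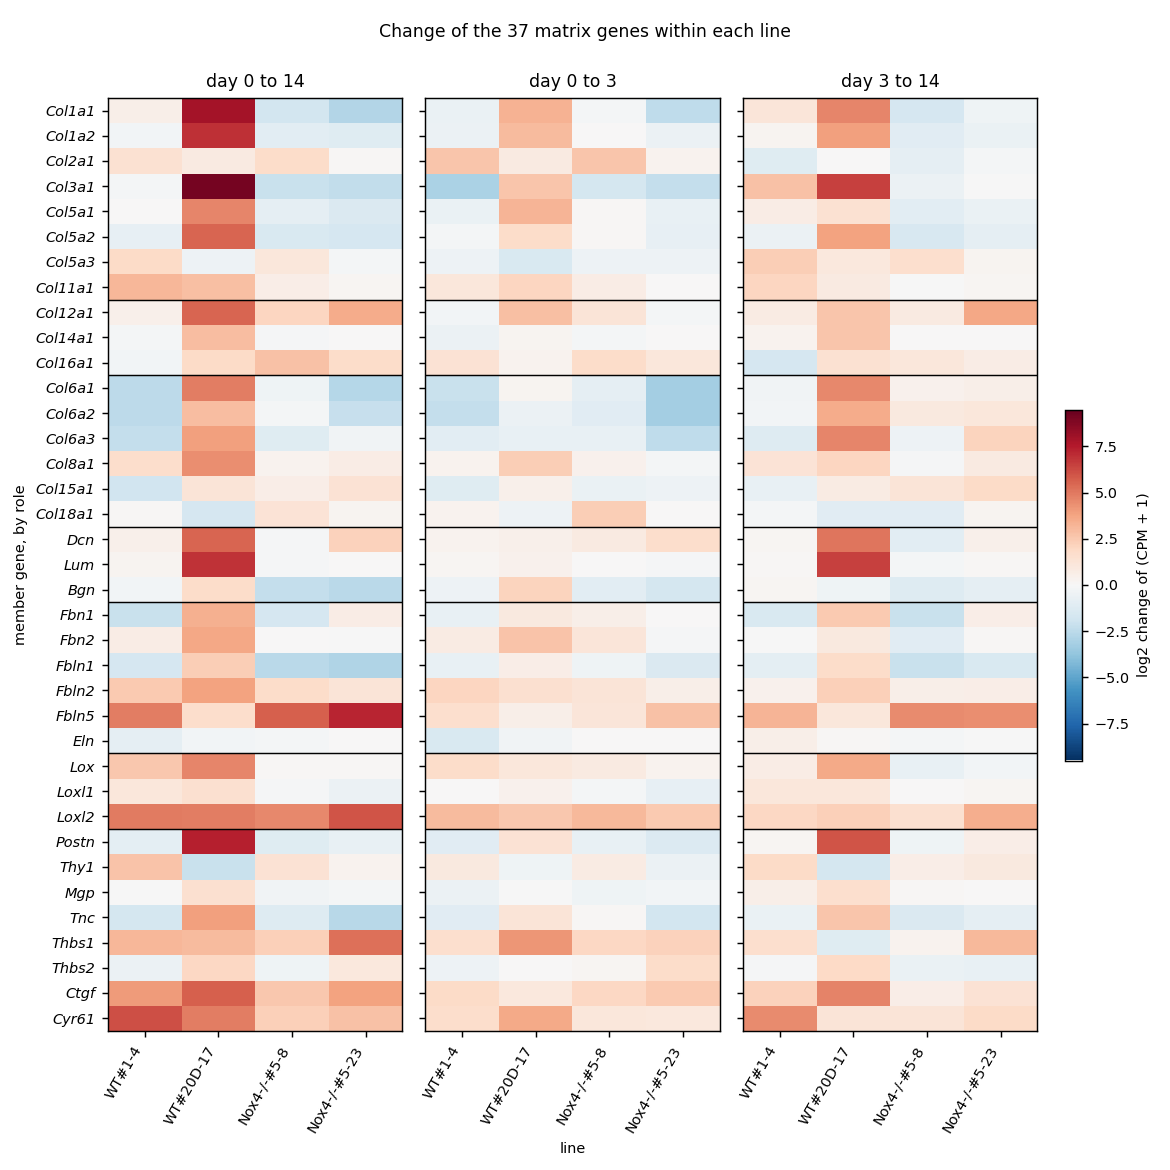
Change of each of the 37 genes (rows, grouped by role, from fibrillar collagens at the top to matricellular genes at the bottom) in each line (columns), as log2 of CPM + 1, from day 0 to 14, day 0 to 3 and day 3 to 14, red for a gain and blue for a loss. In the first panel 32 genes reach a gain of 1 or more in the WT#20D-17 column, while Loxl2 and Fbln5 are red in all 4 lines.

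The fibrillar collagens showed the widest gap between lines. Col1a1, one of the chains of type I collagen (ENSMUSG00000001506, chr11:94936224-94953042 in GRCm38), was at 2.91, 37.7, 137, 609 and 951 CPM on days 0, 3, 5, 7 and 14 in WT#20D-17, and at 22.7, 14.1, 24.8, 36.3 and 33 CPM in WT#1-4. It was at 3.51, 2.89, 2.6, 2.79 and 0.325 CPM in Nox4-/-#5-8, and at 7.77, 0.687, 1.89, 1.29 and 0.255 in Nox4-/-#5-23. WT#20D-17 started below the other lines and ended above them, and both Nox4-/- lines ended lower than they began. The day 14 to day 0 ratio in WT#20D-17 was 327 (95% counting interval 259 to 419), where the interval covers counting error only, as all such intervals below do.

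Col1a2, the partner chain of type I collagen, was at 3.81, 38.2, 115, 329 and 582 CPM in WT#20D-17 and between 8.22 and 12.3 in WT#1-4. Its values in the 10 Nox4-/- libraries were between 0.109 and 1.64 CPM, all below the 10 wild type libraries. In WT#20D-17 at day 14 Col1a1 stood at 145 CPM per kilobase of annotated exon and Col1a2 at 46.8, and the exon length of each gene is the union over all its annotated transcripts.

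Col3a1, the type III chain of stretchable tissues (chr1:45311538-45349706), went in WT#20D-17 from 0.861 CPM at day 0 to 10.3, 70.3, 984 and 1002 on the later days, a ratio of 1164 between day 14 and day 0 (761 to 1880.4). In WT#1-4 it was at 24, 2.18, 2.72, 4.97 and 20.6 CPM, lowest in the middle days. In Nox4-/-#5-8 it went from 4.07 CPM at day 0 to 0.139 at day 14, and in Nox4-/-#5-23 from 4.57 to 0.109, with 3 counts left in each of these day 14 libraries. Col3a1 was thus lowest at day 0 in the line in which it was highest at day 14.

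Type V collagen nucleates type I fibrils. Col5a1 reached 363 CPM on day 7 in WT#20D-17 from 9.39 at day 0 and was at 260.4 on day 14, while it was between 6.71 and 17.3 CPM in WT#1-4 and between 1.93 and 6.5 in the Nox4-/- libraries. Col5a2 went from 2.17 to 149 CPM in WT#20D-17 and went from 8.01 to 4.36 in WT#1-4, from 2.12 to 0.139 in Nox4-/-#5-8, while Nox4-/-#5-23 started at 2.04 and ended at 0. The 3 other fibrillar genes did not follow this course.

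Col5a3, the third type V chain, was lower on days 3 to 14 than on day 0 in WT#20D-17 (6.11 CPM at day 0, 4.15 at day 14) and went from 5.58 to 21.9 in WT#1-4. Col11a1, a type XI chain known from cartilage, went from 2.2 to 27.9 CPM in WT#1-4 and from 2.17 to 22.4 in WT#20D-17, while it stayed at or under 2.91 in Nox4-/-#5-8 and at or under 0.266 in Nox4-/-#5-23. Col2a1, the main collagen of cartilage, peaked on day 5 in Nox4-/-#5-8 at 44.2 CPM, its highest value in any library.

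**Figure D3:**
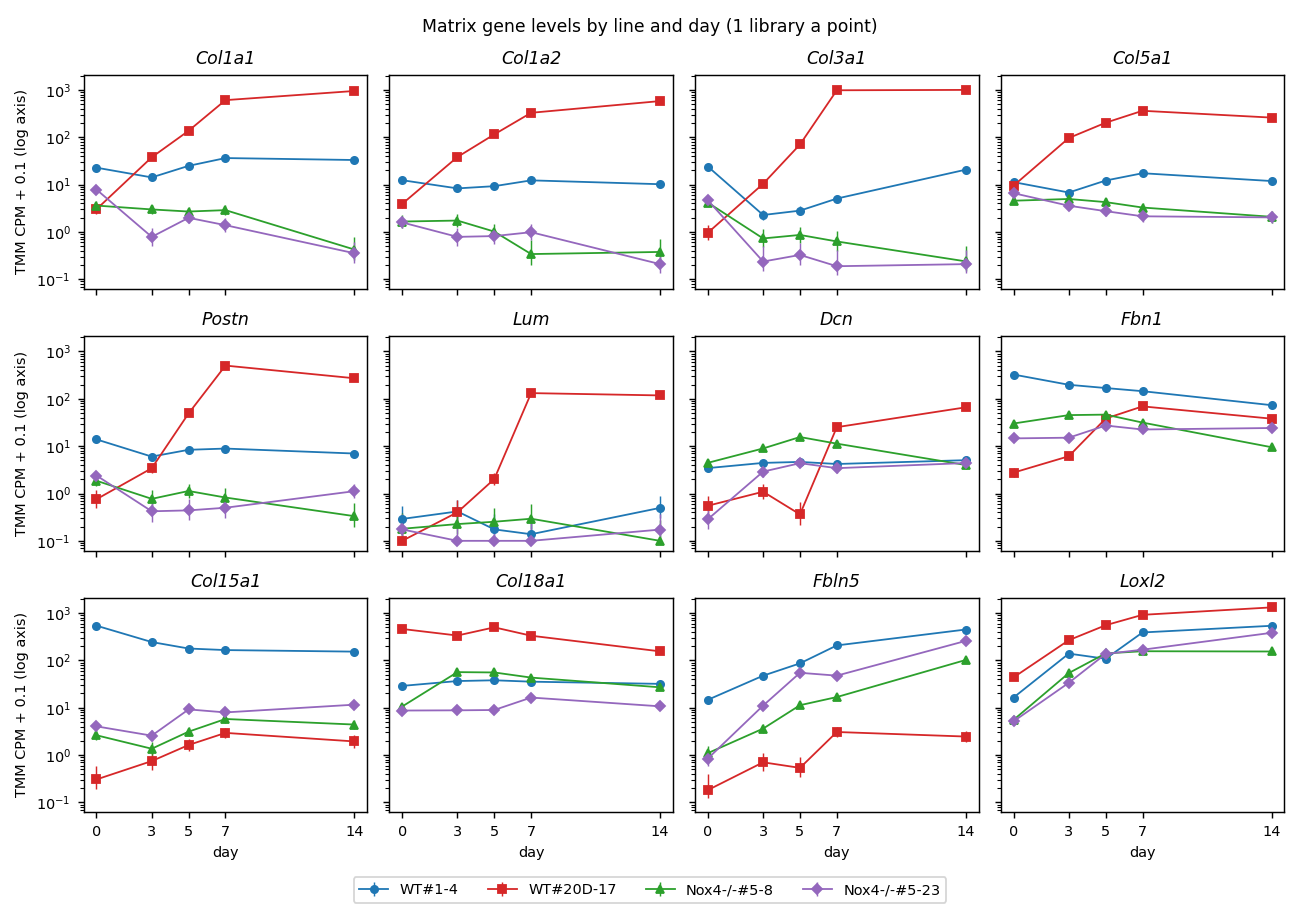
Level of 12 of the genes by day (x) as TMM CPM + 0.1 on a log axis (y), with 1 line a clone, 1 library a point and vertical bars for the 95% Wilson intervals, which cover counting error only. The WT#20D-17 curves of Col1a1, Col1a2, Col3a1, Col5a1, Postn, Lum and Dcn end above the other lines, Col15a1 and Fbn1 are highest in WT#1-4, and Loxl2 ends above its day 0 level in every line.

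Small leucine-rich proteoglycans bind collagen fibrils and regulate their width. Lumican (Lum) was at 0 counts at day 0 in WT#20D-17 and at 0.301, 1.92, 132 and 118 CPM on the following days, so that day 14 was at least 959-fold higher than the limit of 3 counts. In the other 15 libraries Lum had between 0 and 8 counts. Decorin (Dcn) was late as well in WT#20D-17, with 0.262 CPM on day 5, 25.1 on day 7 and 66.1 on day 14, whereas in Nox4-/-#5-8 it was highest on day 5, at 15.5 CPM. Biglycan (Bgn) differed from both: it peaked early in WT#20D-17, at 30.4 CPM on day 5, held between 12.2 and 17.3 in WT#1-4, and went from 5.51 to 0.325 in Nox4-/-#5-8, while Nox4-/-#5-23 started at 8.03 and ended at 0.51.

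Periostin (Postn), a matricellular protein of fibroblasts and valves, was at 0.656, 3.32, 49.1, 504 and 272 CPM in WT#20D-17. It was between 5.92 and 13.8 CPM in WT#1-4 and between 0.232 and 2.3 in the 10 Nox4-/- libraries. Tenascin C (Tnc) peaked with Postn on day 7 in WT#20D-17, at 76 CPM, and went from 14.1 to 3.67 in WT#1-4, from 2.71 to 0.556 in Nox4-/-#5-8, while Nox4-/-#5-23 started at 5.31 and ended at 0.0365. Both genes were highest in WT#20D-17 from day 5 on.

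The type VI collagens, which form beaded filaments around cells, were present at day 0 in the 3 lines other than WT#20D-17 and lower there later. Col6a1 went in WT#1-4 from 36.4 CPM at day 0 to 7.87 at day 3, a ratio of 0.216 (0.184 to 0.252), and in Nox4-/-#5-23 from 14.9 to 0.687, a ratio of 0.046 (0.0255 to 0.0768). It went from 11.1 to 5.71 CPM over the same step in Nox4-/-#5-8 and was still at 8.07 there on day 14. In WT#20D-17 Col6a1 was at 1.84 CPM at day 0 and 2.45 at day 3, and reached 81.2 only on day 14. Col6a2 took the same course, with 4.8 CPM at day 0 and 43.9 at day 14 in WT#20D-17, and 25.6 and 3.77 in WT#1-4. Col6a3 went from 51.4 to 10.2 CPM in WT#1-4 and from 2.3 to 47.8 in WT#20D-17, and was at 11.8 CPM at day 0, 1.42 at day 3 and 9.3 at day 14 in Nox4-/-#5-23.

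Losses over the first 3 days were not confined to type VI. Of the 37 genes, 8 were at least halved from day 0 to day 3 in WT#1-4 (0.681% of all genes), 3 in Nox4-/-#5-8 (0.551%), 9 in Nox4-/-#5-23 (0.556%) and 1, Col5a3, in WT#20D-17 (3.07%). Col3a1 and Col6a2 were among them in each of the 3 lines other than WT#20D-17, with Bgn in Nox4-/-#5-8. The 8 in WT#1-4 also held Col6a1, Col6a3, Col15a1, Postn, Tnc and Eln, and the 9 in Nox4-/-#5-23 also held Col1a1, Col6a1, Col6a3, Postn, Bgn, Fbln1 and Tnc. The part of the feeder cells in these losses was not tested. The fibroblast genes Aspn and Dpt, named after their values were seen, were too low to read much from. Aspn had 0.836, 0.399 and 0.186 CPM at day 0 in WT#1-4, Nox4-/-#5-8 and Nox4-/-#5-23 and at most 0.119 at day 3, and Dpt had at most 0.304 CPM in any library. Pdgfrb went from 7.56 to 1.47, 1.84 to 0.629 and 2.34 to 0.229 CPM from day 0 to day 3 in these lines. Mmp3 went from 3.34 to 0.278, 0.878 to 0.0839 and 1 to 0.0917. S100a4 went the other way, from 14.7 to 35, 15.4 to 49.6 and 8.62 to 26.4. These genes were also named after their values were seen. The 16 fibroblast and mesenchyme genes described below summed to 575, 304 and 264 CPM at day 0 and 496, 294 and 237 at day 3.

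From day 3 to day 14, 27 of the 37 genes were at least doubled in WT#20D-17 (10.1% of all genes), 12 in WT#1-4 (11.7%), 6 in Nox4-/-#5-8 (11.1%) and 9 in Nox4-/-#5-23 (8.20%). Fbln5, Loxl2 and Cyr61 were in all 4 of these sets. Col1a1 and Col3a1 were among the 12 of WT#1-4, Col1a1 going from 14.1 to 33 CPM and Col3a1 from 2.18 to 20.6. WT#20D-17 had the most doubled genes of the 4 lines from either start.

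Among the remaining filament, network and multiplexin collagens, 2 marked single lines. Col15a1, a basement membrane zone collagen of vessels and muscle (chr4:47208161-47313167), was at 541, 244, 178, 165 and 153 CPM in WT#1-4 and at 0.205 to 11.5 in the 15 other libraries. Col18a1, the precursor of endostatin, was at 461, 335, 499, 332 and 155 CPM in WT#20D-17 and at 8.62 to 56.4 elsewhere. Col8a1, a short-chain network collagen, went from 1 count at day 0 to 20.8 CPM at day 14 in WT#20D-17 and from 2.05 to 8.63 in WT#1-4, and was at or under 1.11 CPM in both Nox4-/- lines. All 5 libraries of WT#1-4 lay above the 15 others for 2 of the 37 genes, Col15a1 and Fbn1 (1.13% of all genes), and all 5 of WT#20D-17 for 2, Col18a1 and Fbln1 (10.7%). With day 0 left out, all WT#20D-17 libraries lay above the others for 8 of the 37 genes (15.6% of all genes).

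The collagens that attach to fibril surfaces were less tied to 1 line. Col12a1, found in tendon and other dense tissue, went from 0.123 CPM at day 0 to 50.9 at day 14 in WT#20D-17, from 1.6 to 9.88 in Nox4-/-#5-8 and 3.01 to 44.3 in Nox4-/-#5-23, and stood at 25.4 and 36.4 on these days in WT#1-4. Its day 14 to day 0 ratio was 414 in WT#20D-17 but rests on 3 counts at day 0 (141 to 2011). Col16a1 went from 1.2 to 14.2 CPM in Nox4-/-#5-8, its highest value in any library, from 2.79 to 12.2 in WT#20D-17 and from 1.04 to 5.91 in Nox4-/-#5-23. In WT#1-4 it was at 2.73 CPM at day 0, 9.37 on day 7 and 2.13 on day 14, a day 14 to day 0 ratio of 0.78 (0.522 to 1.15). Col14a1 was at 10.5 CPM in WT#20D-17 on day 14 and had 0 to 3 counts in each Nox4-/- library.

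**Figure D4:**
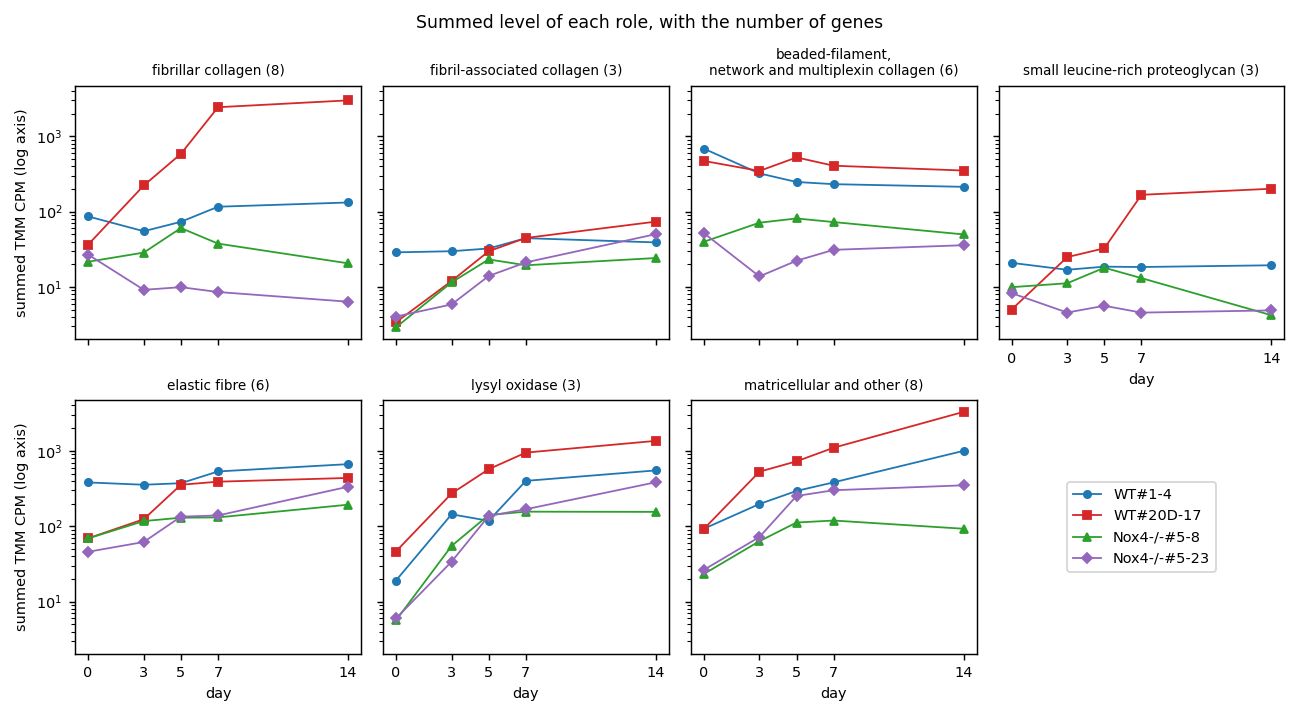
Summed TMM CPM (y, log axis) of the genes of each role by day (x), 1 line a clone, with the number of genes of the role in the panel title. Fibrillar collagens reach 2987 CPM on day 14 in WT#20D-17 against 132, 20.6 and 6.38 in WT#1-4, Nox4-/-#5-8 and Nox4-/-#5-23, whereas the lysyl oxidase sum is higher on day 14 than on day 0 in all 4 lines.

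The elastic fibre genes were split. Fibrillin 1 (Fbn1), the main protein of microfibrils, went in WT#1-4 from 326 CPM at day 0 to 73.4 at day 14, and in WT#20D-17 from 2.66 to 69.2 on day 7 and 38 on day 14. It went from 30 to 9.41 CPM in Nox4-/-#5-8, while Nox4-/-#5-23 started at 14.5 and ended at 24.1, and 20.1% of its exon bases overlap Gm9913 on the opposite strand. Fibulin 1 (Fbln1), a basement membrane and elastic fibre protein, went from 58.9 to 301 CPM in WT#20D-17, and from 10.4 to 2.68 in WT#1-4, 15.3 to 1.81 in Nox4-/-#5-8 and 8.36 to 0.292 in Nox4-/-#5-23. Fbn2, the fibrillin of early development, was highest in WT#20D-17, at 59.3 CPM on day 7, and at most 5.01 elsewhere.

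Fibulin 5 (Fbln5), which guides elastin onto microfibrils (chr12:101746565-101819055), was lowest in WT#20D-17. It was at 14.6, 47.4, 86.4, 207 and 449 CPM in WT#1-4, at 0.998, 3.52, 11.2, 16.7 and 102 in Nox4-/-#5-8 and at 0.743, 11, 54.6, 47.5 and 258 in Nox4-/-#5-23. In WT#20D-17 it was between 0.082 and 2.97 CPM, below WT#1-4 on every day. Day 14 was 30.8 times day 0 in WT#1-4 (27.8 to 34.2), 102 times in Nox4-/-#5-8 (68.9 to 158) and 347 times in Nox4-/-#5-23 (224 to 568). In WT#20D-17 the ratio was 28.8 (7.53 to 245) on 2 counts at day 0, so this line differed from WT#1-4 in level and not detectably in change. Fibulin 2 (Fbln2), which binds fibrillin and elastin, was at least doubled in all 4 lines, from 4.06 to 70.1 CPM in WT#20D-17 and from 21.8 to 51.4 in Nox4-/-#5-23, the highest and the lowest of the 4 ratios, 17.3 and 2.35.

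Elastin itself (Eln) stayed low. It was at 6.72 CPM at day 0 and 1.87 to 3.36 later in WT#1-4, at 1.24 to 2.42 in WT#20D-17, and at 0 to 5 counts in each of the 10 Nox4-/- libraries. Of its exon bases 3.3% overlap the antisense gene Gm30003.

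Lysyl oxidases crosslink collagen and elastin. Loxl2 (chr14:69609068-69695834) was at 16.3, 139, 108, 389 and 538 CPM in WT#1-4, at 43.6, 267, 553, 917 and 1317 in WT#20D-17, at 5.43, 53.9, 140.3, 156 and 154 in Nox4-/-#5-8 and at 5.05, 33.5, 137, 168 and 382 in Nox4-/-#5-23. It was higher on day 14 than on day 0 in every line, with day 14 to day 0 ratios of 33.1, 30.2, 28.4 and 75.6 in this order, although the levels of the wild type lines were higher on day 14, and 5.57% of its exon bases overlap Gm27177 on the opposite strand. Lox, the founding enzyme of the family, reached 30.5 CPM on day 14 in WT#20D-17 and 6.71 on day 7 in WT#1-4, and had 0 counts at day 0 and 2 counts at day 14 in both Nox4-/- lines. Loxl1, which acts on elastin, was at 2.34 to 25.5 CPM in the wild type libraries and at 0.0839 to 0.929 in the Nox4-/- libraries.

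Among the matricellular genes, Ctgf and Cyr61, secreted regulators named Ccn2 and Ccn1 in current nomenclature, were higher on day 14 than on day 0 in every line and highest in the wild type lines on day 14. Ctgf was at 17.7, 66.3, 100.1, 119 and 309 CPM in WT#1-4 and at 45.6, 90.6, 209, 223 and 2358 in WT#20D-17, against 3.67, 17, 19.1, 20 and 26.6 in Nox4-/-#5-8 and 2.04, 15.9, 35.6, 42.3 and 41.6 in Nox4-/-#5-23. Cyr61, whose promoter with TATAAA and CATTCC is printed above, went from 4.33 CPM at day 0 to 369 at day 14 in WT#1-4, from 15.8 to 494 in WT#20D-17, from 4.71 to 27 in Nox4-/-#5-8, while Nox4-/-#5-23 started at 7.02 and ended at 55.3. For Ctgf, 23.2% of the exon bases overlap Gm15270 on the opposite strand.

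Thrombospondin 1 (Thbs1), an activator of latent TGF-beta, was highest on day 3 in WT#20D-17, at 209 CPM, and on day 14 in WT#1-4 and Nox4-/-#5-23, at 269 and 243. Its relative Thbs2 was between 1.53 and 12.9 CPM in all 20 libraries. Thy1, a surface glycoprotein of fibroblasts, neurons and stem cells, went from 14.1 to 2.57 CPM in WT#20D-17 and went from 4.48 to 35.4 in WT#1-4. Matrix Gla protein (Mgp), an inhibitor of calcification, had 38 counts or fewer in every library.

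The next question was which changes stood out when the 4 lines were averaged. A model across all 20 libraries with a term for each line and each day (edgeR's quasi-likelihood test, with a false discovery rate, FDR, under 0.01 over all genes tested) called 10 of the 37 genes higher on day 14 than on day 0 (13.6% of 19240 genes) and 0 lower (13.0%). At an unadjusted p under 0.05 there were 16 of the 37 (49.6% of all genes), and DESeq2 called 11 higher (18.3%). The count at an unadjusted p was thus no larger a share than over all genes. All 37 genes passed the expression filter, and their median change was 0.72 on the log2 scale against 0.04 over all genes. The 10 were Loxl2, Fbln5, Lox, Ctgf, Cyr61, Thbs1, Col11a1, Col12a1, Fbln2 and Col16a1.

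Of these, Loxl2 had the smallest adjusted p, at 3.45e-07, with a log2 change of 5.28 (SE 0.373), and it was higher in 4 of 4 lines. Fbln5 rose by 6.17 (SE 0.607, edgeR adjusted p = 2.98e-06), Ctgf by 4.54 (SE 0.569, adjusted p = 1.74e-05) and Cyr61 by 4.42 (SE 0.651, adjusted p = 6.70e-05). Lox was called with a change of 5.68, although its Nox4-/- libraries were at 0 to 2 counts on days 0 and 14. Col12a1 and Col16a1 were no longer called when either Nox4-/- line was left out. Without the replicate block on line, 5 of the 10 were called (3.25% of all genes higher), Lox, Loxl2, Thbs1, Ctgf and Cyr61.

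Col1a1, Col3a1 and Postn, with large gains in WT#20D-17 alone, were not among the 10. Col1a1 had an average change of 0.01 with an SE of 1.91, Col3a1 of -0.88 with an SE of 1.41, and Postn of -0.13 with an SE of 1.24. Without WT#20D-17 the same model called 17 of the 37 genes, 11 higher (16.3% of 18653 genes) and 6 lower (15.0%), so that the lower share was near that of all genes. The 6 were Col5a2, Col6a1, Col6a2, Bgn, Fbln1 and Tnc. Taking day 3 as the start, an alternative added after seeing the day 0 levels, left 4 higher (6.79% of all genes) and 0 lower (6.83%), namely Fbln5, Loxl2, Ctgf and Cyr61. A test for any change over the 5 days called 9 of the 37 (16.4% of all genes): Loxl2, Fbln5, Ctgf, Cyr61, Col11a1, Fbln2, Thbs1, Col2a1 and Fbn2, of which Col2a1 and Fbn2 were highest on day 5 or day 7 in all 4 lines. Without the replicate block this test called 2 of the 37 (1.80% of all genes).

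The study was built to compare genotypes. At day 0, 0 of the 33 members tested were called higher (0% of 15382 genes) or lower (0%) in the Nox4-/- lines than in the wild type lines by edgeR's quasi-likelihood test on 2 lines against 2. Their median log2 difference was -1.83 against 0.00 over all genes, 31 of the 33 were lower in the Nox4-/- lines, and 7 members (6.28% of all genes) had an unadjusted p under 0.05. DESeq2 called 3 of them, Col18a1, Eln and Ctgf, all lower (1.20% of all genes). The wild type lines themselves were far apart for some genes at day 0, as for Col15a1 (541 CPM in WT#1-4 and 0.205 in WT#20D-17).

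For the change from day 0 to day 14, the same test called a difference between genotypes in 0 of the 37 genes (1 gene of 19240 higher, 0.00520%, and 2 lower, 0.0104%). For 28 of the 37 the rise was estimated as smaller in the Nox4-/- lines, with a median difference of -2.52 against 0.04 over all genes, and 14 members (3471 of the 19240 genes) had an unadjusted p under 0.05. DESeq2 called 5 smaller (1.08% of all genes), Col1a1, Col5a2, Bgn, Fbln1 and Cyr61. Bgn had the smallest adjusted p in the edgeR fit, 0.0735, for a difference of -4.57 (SE 0.936), and for Col1a1 the difference was -7.67 (SE 2.14, adjusted p = 0.111). Here the estimate depends on the wild type line: without WT#1-4, 13 of the 37 genes were called smaller in the Nox4-/- lines (4.35% of 19946 genes), including Col1a1, Col1a2, Col3a1, Col5a1 and Postn, and without WT#20D-17 only Cyr61 was (0.0107% of 18653 genes).

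Pooling the 5 days of WT#1-4 against the 10 Nox4-/- libraries, with edgeR's exact test, called 19 of the 37 genes lower in the Nox4-/- lines (3.97% of 33860 genes) and 0 higher (1.66%). This pooling follows the study's methods. Days of 1 clone stand in for replicates in this test, so its p-values measure the spread over days and between the 2 Nox4-/- clones. Spread between wild type clones is not measured, since WT#1-4 was the only wild type line in it. The lower genes were 10 collagens (Col1a1, Col1a2, Col3a1, Col5a1, Col5a2, Col6a3, Col8a1, Col11a1, Col14a1 and Col15a1), with Postn, Thy1, Bgn, Fbn1, Eln, Lox, Loxl1, Mgp and Ctgf. The log2 differences were -3.44 for Col1a1, -3.26 for Col3a1, -5.63 for Col15a1, -5.29 for Eln and -3.59 for Loxl1. When the counts of each line were summed and the 4 lines compared as 2 against 2 with the quasi-likelihood test, 0 of the 37 genes were called higher (0% of 20229 genes) or lower (0%), with 18 members (8.05% of all genes) at an unadjusted p under 0.05 and an adjusted p of 0.604 for each of those 18.

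When WT#20D-17 was the wild type line instead, 21 of the 37 genes were lower in the Nox4-/- lines (16.0% of 33860 genes) and 2, Col15a1 and Fbln5, were higher (9.81%). Col15a1 changed direction with the wild type line used, from -5.63 to 1.87. Fbn1 was at -2.78 with WT#1-4 and at -0.21, not called, with WT#20D-17. The 2 comparisons share the same Nox4-/- libraries.

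Regardless of the wild type line, 4 genes separated the genotypes without overlap: Col1a2, Col5a1, Eln and Loxl1 lay lower in all 10 Nox4-/- libraries than in all 10 wild type libraries (1.49% of all genes). For Eln the lowest wild type value was 1.24 CPM and the highest Nox4-/- value 0.191, and for Loxl1 they were 2.34 and 0.929. For Col1a2 they were 3.81 and 1.64, and for Col5a1 they were close, 6.71 and 6.5. This order held at day 0 as well as later, but the 4 genes were picked by it, and the libraries are repeated days of 2 clones a genotype. In edgeR's quasi-likelihood test at day 0 none of them was called. The adjusted p was 0.787 for Col1a2, 0.855 for Col5a1, 0.761 for Eln and 0.804 for Loxl1. By the sign of the change alone, 4 of the 37 genes, Col1a1, Col5a1, Lum and Loxl1, were above day 0 on day 14 in both wild type lines and below it in both Nox4-/- lines (3.34% of all genes).

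Companion genes show what else of the pathway moved. Of 29 genes for collagen synthesis and crosslinking, 11 were higher (13.6% of all genes) and 1 lower (13.0%) on day 14 in the model across all lines. Their median was 1.06 on the log2 scale. P4ha1 and P4ha2, catalytic subunits of prolyl 4-hydroxylase, rose by 3.70 and 4.19, Loxl4 by 5.02, and Adamts3, a procollagen N-proteinase, fell by 3.74. P4ha1 went from 47.7 CPM at day 0 to 441 at day 14 in WT#1-4, from 44 to 1244 in WT#20D-17, from 28.5 to 328 in Nox4-/-#5-8, while Nox4-/-#5-23 started at 29 and ended at 319, so it was higher on day 14 in all 4 lines, unlike Col1a1 and Col3a1. Serpinh1, the collagen chaperone HSP47 and named after its values were seen, went in WT#20D-17 from 266 to 4709.7 CPM and was between 389 and 701 in the other 15 libraries.

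Of 38 other interstitial matrix genes, 8 of the 33 tested were higher (13.6% of all genes) and 0 lower (13.0%). Sparc, a collagen-binding glycoprotein, rose by 3.94 and reached 12005 CPM in WT#20D-17 and 824 to 2089 in the other lines. Prelp (6.04) and Fmod (5.22), both leucine-rich proteoglycans, rose mostly outside WT#20D-17: Prelp was at 57.7 CPM on day 14 in WT#1-4, 9.27 in Nox4-/-#5-8, 14.1 in Nox4-/-#5-23 and 0.157 in WT#20D-17. Spon2 rose by 4.32. The small proteoglycans differed by line on day 14, with Lum and Dcn highest in WT#20D-17 and Prelp and Fmod in the other lines.

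In matrix turnover, 9 of 17 tested genes were higher (13.6% of all genes) and 1, Mmp3, lower (13.0%), and Mmp3 is named after its values were seen. Timp3, a metalloproteinase inhibitor, rose by 4.67 and was at 955, 191, 575 and 1076 CPM on day 14 in WT#1-4, WT#20D-17, Nox4-/-#5-8 and Nox4-/-#5-23. Adamts5 (4.23), Adamts9 (2.82) and Timp2 (2.42) were also called. However, Adamts5 was at 3 counts or fewer on every day in both Nox4-/- lines, as was Adamts9 in Nox4-/-#5-23. Adamts9 was at 597 CPM on day 14 in WT#20D-17 and at most 0.942 in the other lines.

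**Figure D5:**
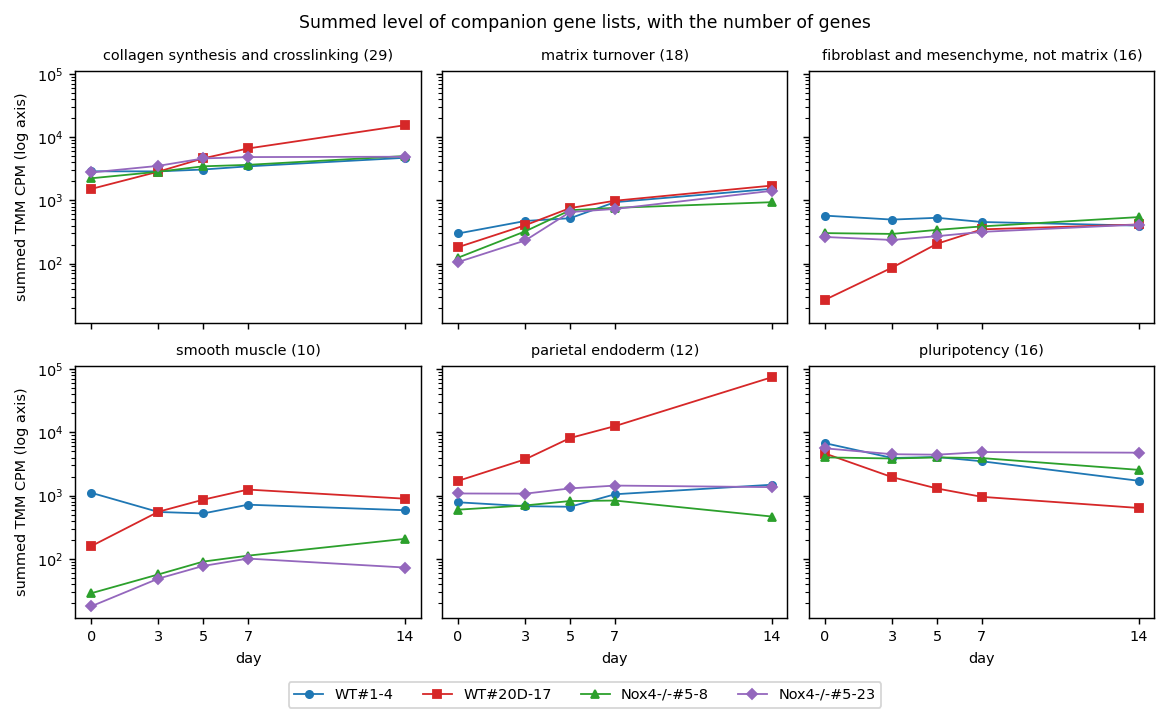
Summed TMM CPM (y, log axis) of 6 companion gene lists by day (x), 1 line a clone, with the number of genes in each panel title. The parietal endoderm sum reaches 74815 CPM in WT#20D-17 on day 14, and the sum of fibroblast genes outside the matrix goes from 26.7 to 416 CPM in that line while it is between 237 and 575 in the others.

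The group is named for fibroblasts, so fibroblast and mesenchyme genes outside the matrix were set beside it. Of 16 such genes, 9 were at least doubled in WT#20D-17 by day 14 (16.7% of all genes) and 0 at least halved (15.3%). In WT#1-4, Nox4-/-#5-8 and Nox4-/-#5-23, 2, 2 and 3 were doubled (14.9%, 13.5% and 12.9%) and 4, 3 and 3 halved (14.6%, 10.2% and 9.83%). Their sum at day 0 was 26.7 CPM in WT#20D-17 and 575, 304 and 264 in the other lines. Ddr2, named after its values were seen, was at 0.205 CPM at day 0 in WT#20D-17 and at 287, 208 and 162 in the others. In the model across all lines 2 of 15 tested rose, near the 13.6% of all genes, namely Pdgfra (2.88), a receptor of mesenchymal cells, and S100a4 (3.25). Meox2, a mesoderm factor, fell by 3.98, where 13.0% of all genes were lower. The Meox2 value comes from WT#1-4, where it went from 101 to 5.16 CPM, since it was at 0 in all 10 Nox4-/- libraries and at most 0.0525 CPM in WT#20D-17. Pdgfra reached 297 CPM in WT#20D-17 and at most 13.3 elsewhere, and S100a4 went the other way, with at most 0.997 CPM in WT#20D-17 and 58.4 to 337 on day 14 in the other lines. Fap, an activated fibroblast protease, was at or under 0.42 CPM in all libraries. These markers were highest in different lines, and no cell type is assigned to the matrix genes here.

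Markers of other cell types moved with WT#20D-17 too. All 12 parietal endoderm genes were at least doubled in WT#20D-17, with Sox17 and Sox7 at 3 counts or fewer on every day in both Nox4-/- lines, and Col4a1, a basement membrane collagen named after its values were seen, went from 379 to 26175 CPM in WT#20D-17 and was between 5.18 and 43.5 in the other lines. Not every gene of that list was low elsewhere. Thbd was at 14.1 to 51.2 CPM in the Nox4-/- libraries and at 0.246 to 14.4 in WT#20D-17. Nid1 was at 92.9 and 193 CPM at day 0 in Nox4-/-#5-8 and Nox4-/-#5-23 and at 44.3 in WT#20D-17, where it reached 3603 on day 14. Both were named after their values were seen. Smooth muscle genes summed to 158 CPM at day 0 and 893 at day 14 in WT#20D-17, 1107 and 587 in WT#1-4, and 17.6 to 206 in the Nox4-/- libraries. Most of the WT#1-4 sums was Des, named after its values were seen, at 1049 CPM at day 0 and 380.3 at day 14. By gene, 5 of the 10 smooth muscle genes were at least doubled in WT#1-4 and 1 was at least halved, against 6 and 1 in WT#20D-17. Endothelial genes summed to 21.8 CPM at day 0 and 199 at day 14 in WT#20D-17 and to 158 to 544 in the other lines. Tek, at 82.9 to 379.7 CPM, and Pecam1 made up most of the sums of the other lines. Single genes were highest in different lines. Kdr reached 55.9 CPM and Tie1 12.9 in WT#20D-17, against at most 2.88 and 0.569 elsewhere. Esam reached 54 CPM elsewhere and at most 13.2 in WT#20D-17. These endothelial genes were named after their values were seen. In the model across all lines 13.6% of all genes were higher and 13.0% lower. Higher were 3 of 12 parietal endoderm genes, 3 of 10 smooth muscle genes, 2 of 8 endothelial genes and 2 of 11 tested cartilage genes. Of 3 tested bone genes 1 was higher and 2 lower, and of 16 pluripotency genes 5 were lower and 1 higher. These calls average over the 4 lines, which differed in the pluripotency genes as given above. The part of these cell types in the matrix gene levels was not tested.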

How the data were processed

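Strand-marked mRNA libraries were sequenced from 20 cultures. The authors mapped reads with STAR 2.6.0c to mm10 (GRCm38) and deposited gene-level expected counts from RSEM 1.3.1, of which 9.92% of values had decimals. They were rounded for count models, and the strand setting of RSEM was not given in the sources used here. TMM CPM, the quasi-likelihood test and the exact test came from edgeR 4.0.16 (R 4.3.3, limma 3.58.1), with DESeq2 1.42.0 as an alternative. Genes were filtered on low counts by edgeR's default (19240 of 55573 kept), except in the exact test on all 33860 genes with any count. FDR under 0.01 was called. Line was a term in the fits over days, since the same clone was sampled on each day. Other scalings, no filter, other thresholds, no line term and leaving out each line were tried. Libraries of 1 genotype and day differed by more than sampling noise (chi-square per degree of freedom 26.7 to 323). Counts without molecular identifiers mean that intervals and limits cover counting error only. All members are named, and of each companion list at most 4 called genes with the largest change and a mean of at least 10 counts. Members and lists were chosen with earlier results of these data known. Labels do not say whether the lines came from separate animals.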

Additional observations from a re-analysis of the deposited data

Results flagged for a closer look

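Of the 37 genes, 4 had a day 14 level above day 0 in both wild type lines and below it in both Nox4-/- lines: Col1a1, Col5a1, Lum and Loxl1. This sign pattern was found in 3.34% of all genes. On log2(CPM + 1) the changes in WT#1-4, WT#20D-17, Nox4-/-#5-8 and Nox4-/-#5-23 were 0.52, 7.93, -1.77 and -2.80 for Col1a1, and 0.07, 4.65, -0.87 and -1.36 for Col5a1. For Lum they were 0.23, 6.89, -0.11 and -0.00, on 8 counts or fewer in each library outside WT#20D-17 and on 2 counts on both days in Nox4-/-#5-23, so that no fall was measured there, and for Loxl1 1.09, 1.51, -0.13 and -0.58. These genes were picked out by the sign of their changes, so that choice is no test. In the edgeR test of the difference in change between genotypes, none of the 4 was called, with adjusted p of 0.111 for Col1a1, 0.205 for Col5a1, 0.398 for Lum and 0.185 for Loxl1.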

How the results depend on the processing

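Counts of calls are given as all genes, then members. For day 14 against day 0 (5133 and 10), leaving out a line gave 2479 to 5830 and 8 to 17, FDR 0.05 gave 7894 genes, the fit without the replicate block on line gave 1649 and 5, and day 3 as the start gave 2621 and 4. For any change over days (3163 and 9), DESeq2 gave 5095 and 14, FDR 0.05 gave 5304 and 14, leaving out a line gave 610 to 4002 and 4 to 12, and no replicate block gave 347 and 2. For genotype at day 0 (0 and 0), DESeq2 gave 253 and 3, leaving out a line gave 0 to 3024 and 0 to 10, and a fit of all 20 libraries with no replicate block gave 2 genes. For genotype by day (3 and 0, with 1 gene up and 2 down), upper quartile scaling gave 5 (3 up, 2 down), DESeq2 size factors 2 up and 2 down, the DESeq2 test 535 and 5, no filter 39, FDR 0.05 28, leaving out a line 0 to 1710 and 0 to 13, and no replicate block 0. For the pooled genotype comparison (1905 and 19), the quasi-likelihood test gave 1228, WT#20D-17 in place of WT#1-4 8736 with Col15a1 reversed at 1.87, the line as the unit 0 and 0, and FDR 0.001 1218. Members with all WT#20D-17 libraries above all others went from 2 to 8 with day 0 left out, where the share of all genes went from 10.7% to 15.6%. Of 110 repeats of the 10 genes called for day 14, 95 kept direction and call, 15 kept direction only and 0 reversed. With 1 library for each line and day and 2 clones a genotype, differences between clones limit every genotype comparison, and a fit that leaves 1 line in an arm assumes that it varies like the others.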
